A study of Mus musculus with 12 samples.

Results

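The mitochondrial ribosomal protein genes were read in RNA of whole mouse cochleae as the 77 of 23915 readable genes whose symbol starts with Mrpl or Mrps followed by a digit, 48 with the first name and 29 with the second. Poly(A) RNA was sequenced in 12 libraries, 3 in each of 4 groups: WT at 5 months (E1, E3 and E4), Dusp1-/- (KO) at 5 months (E7, F18 and F19), WT at 8 months (F1, F10 and F12) and KO at 8 months (F5, F6 and F27). All mice shared a mixed 129S2/SvPas:C57BL/6 background, and the KO mice are described as null for Dusp1, a phosphatase of MAP kinases, in the whole body and not in chosen cells. The letters and numbers are the codes in the titles of the samples. What the letters mean is not stated in the sources at hand, and since all 3 WT libraries at 5 months carry an E and all 6 libraries at 8 months an F, age and letter cannot be told apart in WT. Whole cochleae mix sensory, supporting, strial, neural, bone and blood cells, so fewer cells of a type and less RNA per cell cannot be told apart either.

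The mitochondrial ribosome translates the few messages of mitochondrial DNA, all of which encode subunits of the oxidative phosphorylation (OXPHOS) complexes. Its RNAs come from mitochondrial DNA and its proteins from nuclear genes, whose products are made in the cytosol and imported. Part of these proteins descend from the bacterial ribosome and part were added in mitochondria. The organelle's translation is tied to hearing through inherited variants of its small ribosomal RNA, which sensitise hair cells to aminoglycosides, and through human MRPS2 and MRPS7, whose variants cause OXPHOS deficiency with sensorineural hearing loss.

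By their place in the ribosome, 50 members encode proteins of the large subunit, 2 of them under Mrps names (Mrps30 and Mrps18a), and 26 encode proteins of the small subunit. The remaining member, Mrps36, carries the name but is now known as a component of the 2-oxoglutarate dehydrogenase complex. By descent, 46 have a bacterial counterpart and 30 are specific to mitochondria. All 77 passed the filter on low values, a mean of at least 0.5 FPKM (fragments mapped to a gene per length of its transcript and size of the library, the authors' unit of level), which 16255 genes passed in all. No read numbers were at hand, so depth is unknown.

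Dusp1 transcripts were higher, not lower, in the libraries carrying the KO label. At 5 months these had 61.9, 81.5 and 75.3 FPKM (E7, F18 and F19) where WT had 60.8, 47.6 and 29.5 (E1, E3 and E4). At 8 months the libraries labelled KO had 57.1, 55.6 and 73.7 FPKM (F27, F5 and F6) and those labelled WT 43.0, 38.3 and 38.6 (F1, F10 and F12). A whole-gene value does not show which allele was read, so directions between genotypes rest on the labels, and KO and WT stand for libraries labelled so. All 20 cochlear marker genes were present in all 12 libraries. The 18 neutrophil markers found added up to 96.8 to 728 FPKM in WT and 4234 to 23292 in KO at 5 months, and to 726 to 4716 and 928 to 17100 at 8 months, with none of the 18 at 0 in any library. The part of such cells in the results was not tested.

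Levels per length spanned 35.7-fold between members, although 1 copy of nearly every protein sits in a ribosome. The median member had a mean of 29.1 FPKM, with quartiles of 20.1 and 49.6. The 5 most abundant were Mrps21 (214 FPKM), Mrps6 (183), Mrpl52 (141), Mrpl42 (117) and Mrpl33 (89.0), from both subunits. Mrps6 shares bases with Slc5a3, an inositol transporter gene on the same strand, so its level is uncertain. The 5 least abundant were Mrpl57 (9.93 FPKM), Mrpl15 (9.48), Mrpl17 (8.82), Mrpl1 (7.07) and Mrpl19 (5.99), all of the large subunit.

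Members with short annotated exons had the higher levels. The 5 most abundant have 407 to 780 exonic bases and the 5 least abundant 2321 to 6712, against a median of 1053 over members and 2463 over all coding genes. The 39 members up to that median had a median level of 49.3 FPKM and the 38 above it 22.1. Length is the divisor in FPKM, and the part of the annotated length in this order was not tested. Large and small subunit genes had similar median levels (28.0 and 28.3 FPKM), and genes with a bacterial counterpart had 33.3 against 25.9 for those specific to mitochondria.

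**Figure D1:**
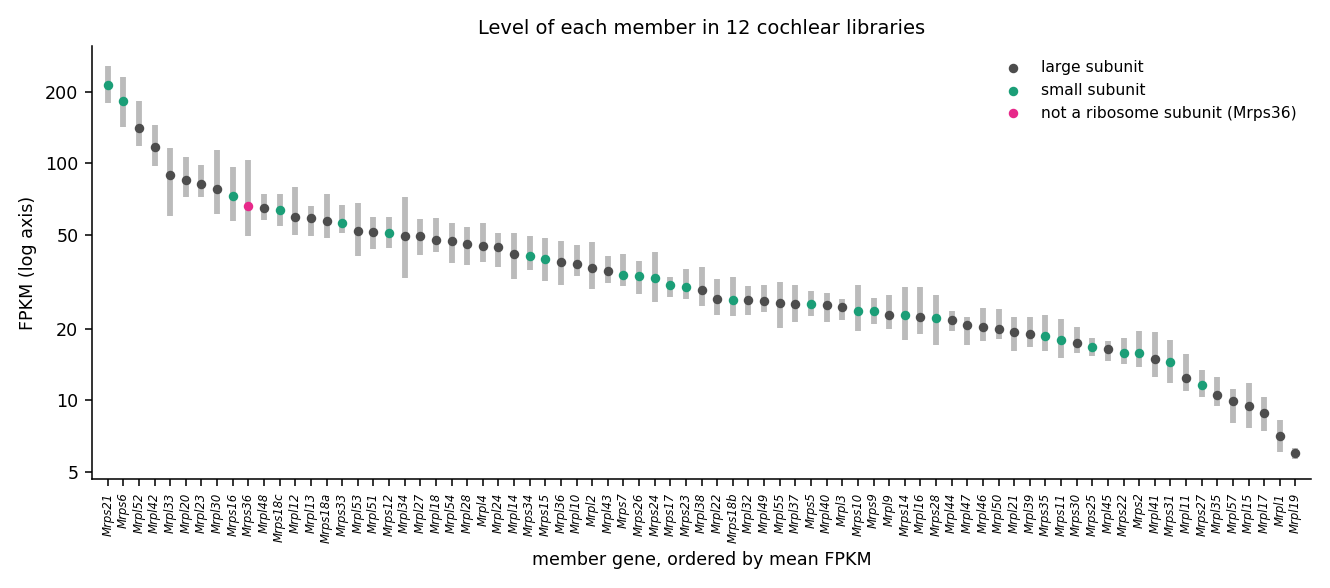
Mean FPKM over 12 libraries (points, log axis) and the range from the lowest to the highest library (grey bars) for each of the 77 members, ordered by mean and coloured by subunit. Levels run from 5.99 (Mrpl19) to 214 FPKM (Mrps21), and most bars are short beside that span.

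The members lie on 17 chromosomes, 8 of them on chromosome 17, which also carries Dusp1 (chr17:26642536-26645417 in mm9). Stretches around the start sites of 4 members are printed here for what they show of the group: Mrps10, the member with the smallest p between genotypes, Mrps25, the member with the smallest p among those lower in KO, Mrpl28, the member nearest to Dusp1, and Mrps12, the member with the smallest p between ages in WT. Each runs from 130 bases before the annotated start to 30 after it, in mm9 and 5′ to 3′ on the gene's strand, with capitals for CCGGAAG (the core bound by ETS factors), AAGATGGCG (YY1) and CCAAT (NF-Y) on either strand.
Mrps10: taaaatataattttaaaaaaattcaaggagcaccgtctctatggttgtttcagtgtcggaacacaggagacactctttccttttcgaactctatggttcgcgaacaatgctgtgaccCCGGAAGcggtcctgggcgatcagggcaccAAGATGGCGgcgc
Mrpl28: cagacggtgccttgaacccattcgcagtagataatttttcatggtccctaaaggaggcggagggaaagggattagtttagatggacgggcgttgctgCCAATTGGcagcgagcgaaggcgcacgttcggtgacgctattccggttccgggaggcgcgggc
Mrps12: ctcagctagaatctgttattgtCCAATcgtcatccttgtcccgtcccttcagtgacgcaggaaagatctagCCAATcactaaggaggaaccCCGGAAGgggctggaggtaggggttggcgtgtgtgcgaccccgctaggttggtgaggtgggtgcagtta
Mrps25: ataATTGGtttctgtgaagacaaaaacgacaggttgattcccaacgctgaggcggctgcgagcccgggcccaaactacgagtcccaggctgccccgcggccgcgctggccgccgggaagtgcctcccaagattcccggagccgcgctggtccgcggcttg
They lie at chr17:47505706-47505865 (plus strand), chr17:26260318-26260477 (plus), chr7:29526771-29526930 (minus) and chr6:92133988-92134147 (minus).

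Mrps10 holds an ETS core beginning 13 bases before its start and a YY1 match at base 18 of the transcript. Mrps12 holds an ETS core 39 bases before the start and CCAAT boxes, and its start lies within 1000 bases of that of Sars2, the mitochondrial seryl-tRNA synthetase gene, which runs the other way. Mrpl28 holds overlapping CCAAT matches on both strands. Mrps25 holds a CCAAT match alone.

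The ETS core was the most common of these matches in the group. In windows of 300 bases (250 before the start and 50 after), the ETS core occurred in 32 of 77 members (41.6%) and in 12.1% of 20549 coding gene windows, and the YY1 sequence in 11.7% against 2.1%. The core of the NRF1 site, GCGCATGCG, occurred in 7.79% of members and 2.36% of all windows, and CCAAT in 36.4% and 38.4%. All 4 were searched on both strands, and the members that share a start region with another gene were counted singly. A gene running the other way began within 1000 bases of 27 members (35.1%) and of 9.09% of coding genes. The median observed to expected ratio of CpG was 0.821 in members and 0.607 in all, while GC content was alike (medians of 57.7% and 57%). These are counts of letters and do not show binding.

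The members varied together from library to library, and 2 KO libraries stood apart. F18 (KO, 5 months) was the highest of the 12 libraries in 33 members and F6 (KO, 8 months) in 32, so these libraries held the highest value of 65 of 77 members, where F18 was highest in 7.7% of all genes tested and F6 in 12%. F18 lay above both other KO libraries of its age in 71 members and F6 above both of its own in 63. The lowest values lay in E1 (WT, 5 months) and F19 (KO, 5 months), with 20 members each. On the log2(FPKM + 0.5) scale, the median deviation of the members from their own means was 0.19 in F18 and 0.21 in F6, and it was −0.14 in both E1 and F19. All members together made up 0.535% (F19) to 0.653% (F18) of a library's summed FPKM.

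Within each KO group the libraries differed by more than the groups did. The KO libraries at 5 months had median deviations of −0.080 (E7), 0.19 (F18) and −0.14 (F19), and those at 8 months 0.047 (F5), 0.21 (F6) and −0.030 (F27). The WT libraries lay closer together and their ages did not overlap, at −0.14 (E1), −0.098 (E3) and −0.081 (E4) at 5 months and 0.073 (F1), −0.033 (F10) and 0.065 (F12) at 8 months. Single members varied little, with a median ratio of the highest to the lowest library of 1.4. The smallest ratio was 1.12 (Mrpl19, a large subunit protein) and the largest 2.2 (Mrpl34, the counterpart of bacterial L34).

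Nuclear OXPHOS genes, 76 in number, had the same libraries at the top, with median deviations of 0.49 in F18 and 0.30 in F6 and of −0.22 in E1 and −0.26 in F19. The 82 cytosolic ribosomal protein genes that could be tested had 0.22 in F6 but −0.083 in F18, and −0.31 in E1. The summed FPKM of the neutrophil markers was 4234 in F18 and 928 in F6. It was highest in E7 and F5 (23292 and 17100), whose member deviations were −0.080 and 0.047. Skeletal muscle markers added up to 1740 FPKM in F18, 406 in F6 and 2371 in E3, whose member deviations were 0.19, 0.21 and −0.098. The part of neutrophils and muscle in the differences between libraries was not tested.

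**Figure D2:**
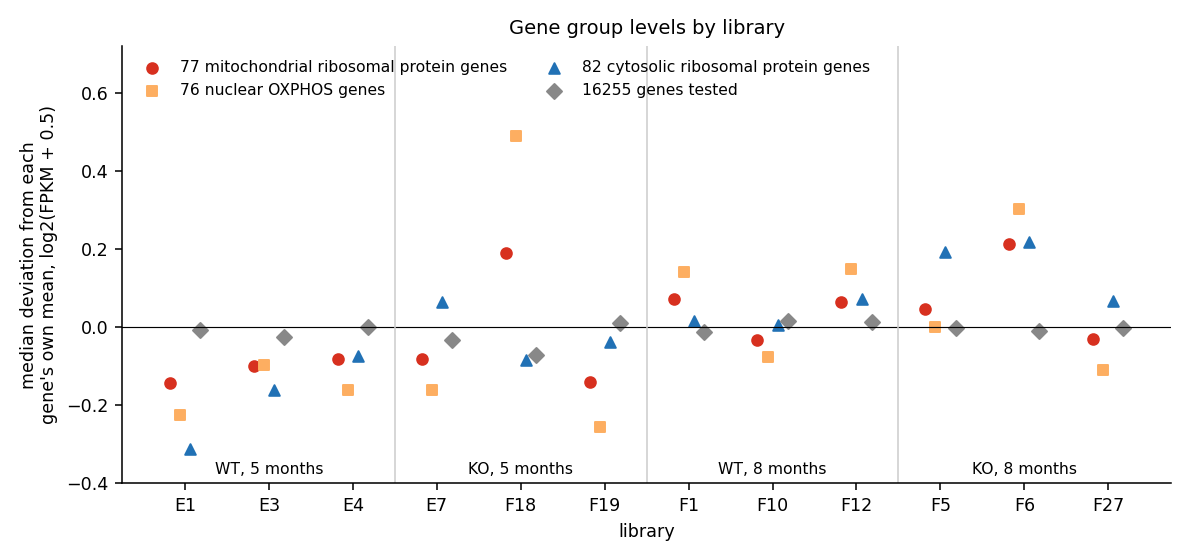
Median deviation of each gene group from its genes' own means over 12 libraries, on the log2(FPKM + 0.5) scale, by library in 4 groups. The mitochondrial ribosomal protein genes (circles) and OXPHOS genes (squares) are highest in F18 and F6, while the median of all genes (diamonds) stays near 0.

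The first question of the design is whether the loss of Dusp1 changed these genes. No member passed an adjusted p of 0.05 in limma between KO and WT at 5 months, at 8 months or averaged over both ages, with smallest adjusted p of 0.225, 0.894 and 0.128, where 0.0677%, 0.0123% and 0.08% of all genes did. Most members were slightly higher in KO: 61 of 77 at 5 months, where 44.3% of all genes were above 0, with a median log2 change of 0.10 where that of all genes was −0.027, and 57 of 77 at 8 months (all genes 48.3%), with 0.042 against −0.0040. Averaged over ages 63 of 77 were higher (all genes 45.7%). Both ages gave a higher value in KO for 49 members and a lower one for 8. Of the most similar groups, 74 of 76 OXPHOS genes (median 0.19) and 79 of 82 cytosolic ribosomal protein genes (0.15) were above 0 at 5 months. At 8 months 38 of 76 (0.00013) and 75 of 82 (0.12) were. Averaged over ages 45 of the 82 cytosolic genes and 0 of the 76 OXPHOS genes were higher at an unadjusted p under 0.05 in limma (all genes 7.74%).

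Few members held up singly. At 5 months 2 were higher at an unadjusted p under 0.05 and none lower, where 8.23% and 9.91% of all genes were. At 8 months 1 was higher and none lower, against 2.21% and 2.97%. Averaged over ages 3 were higher (Mrps10, Mrps15 and Mrpl24) and none lower, against 7.74% and 9.65%. The 3 KO libraries lay wholly above the 3 WT libraries in 6 members at 5 months (7.79%, all genes 11.3%) and in 3 at 8 months (3.9%, all genes 4.11%), and wholly below in none, where 13.7% and 6.17% of all genes did. In no member did all 6 KO libraries lie above or below all 6 WT libraries, as they did for 0.289% and 0.929% of all genes.

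Most marker lists had medians farther from 0 in the same comparisons. The 20 cochlear markers did not, with medians of −0.080 at 5 months and 0.029 at 8 months. At 5 months all 18 neutrophil markers (median 4.67), all 13 erythroid markers (1.95), 12 of 13 B cell markers (1.94) and all 19 proliferation markers (1.44) were above 0 in KO, and all 19 neuron markers (−0.30) and all 16 brain markers (−0.64) below it, with 18, 11, 12, 18, 10 and 4 of them at an unadjusted p under 0.05. Erythroid markers added up to 1132 to 3412 FPKM in WT and 3430 to 6428 in KO, and neuron markers to 2246 to 2381 and 1710 to 2017. At 8 months the skeletal muscle markers were the most apart, with 14 of 14 above 0 (median 2.00), none of them at that p and sums of 323 to 356 FPKM in WT and 406 to 685 in KO. The part of these cells in the members' values was not tested.

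The medians above 0 rested on F18 and F6. Without F18 the median change at 5 months was 0.0036, and without F6 that at 8 months was −0.017. Without F19 it was 0.18 at 5 months, with 13 members higher at an unadjusted p under 0.05 (all genes 8.37%).

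**Figure D3:**
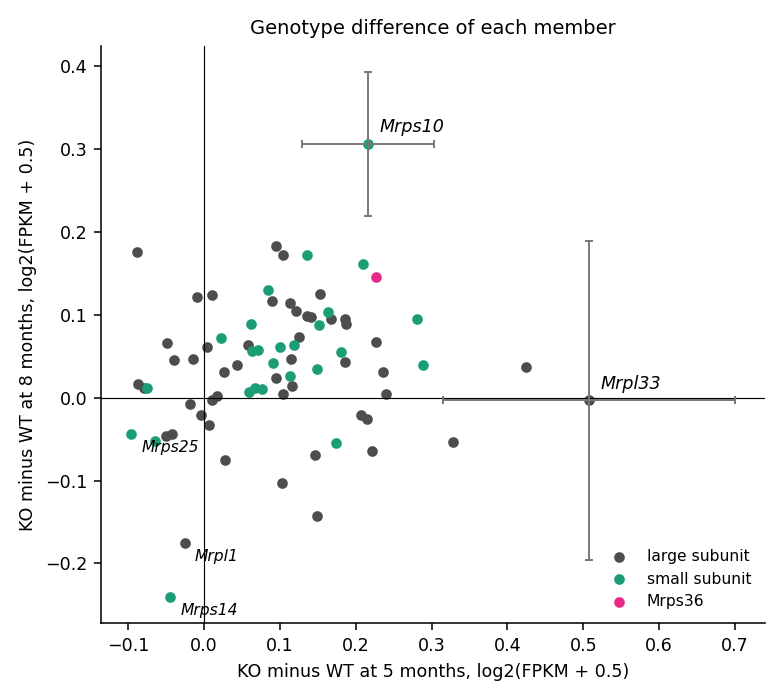
Fitted difference between KO and WT of each member at 5 months (x axis) and 8 months (y axis), on the log2(FPKM + 0.5) scale, with standard errors for Mrps10 and Mrpl33. Most points lie at small values above 0 on both axes, and Mrps10 is the member farthest above 0 at 8 months.

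Mrps10, a small subunit protein with a bacterial counterpart, had the smallest p between genotypes. At 5 months its levels were 21.0, 19.6 and 19.6 FPKM in WT (E1, E3 and E4) and 23.1, 25.9 and 21.3 in KO (E7, F18 and F19). At 8 months they were 22.8 to 23.1 FPKM in the 3 WT libraries and 25.3, 29.9 and 30.8 in KO (F5, F6 and F27). The KO values lay above all WT values of their age, but the lowest KO value at 5 months lay below the WT values at 8 months.

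The change of Mrps10 was 0.22 ± 0.086 at 5 months (log2, standard error) and 0.31 ± 0.086 at 8 months, and 0.26 ± 0.061 averaged over ages. An exact permutation test of genotype within ages gave p = 0.005, two-sided, the smallest it can give, while limma's adjusted p over all genes was 0.128. Mrps10 was picked as the top of 77 members, and the permutation p takes no account of that. Without F18 the change at 5 months was 0.14. Leaving out single libraries moved the averaged change between 0.22 (without F18) and 0.30 (without F5). The gene starts 20.86 Mb from Dusp1, on the same chromosome.

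Mrpl33, the counterpart of bacterial L33, had the largest fitted difference at 5 months. Its levels were 59.9, 84.9 and 71.2 FPKM in WT and 110.5, 109.96 and 86.2 in KO, with the lowest KO value just above the highest WT value. The change was 0.51 ± 0.19 (exact permutation p = 0.1, the smallest 3 against 3 can give, limma adjusted p = 0.225). At 8 months the levels were 90.3, 85.0 and 94.5 in WT and 116, 93.1 and 66.6 in KO (F5, F6 and F27), which spanned the WT values on both sides, with no change in the fit (a log2 difference of −0.0032 ± 0.19). The difference between the ages was not called (−0.51 ± 0.27, limma adjusted p = 0.877).

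Mrps15 and Mrpl24, of the small and the large subunit, had log2 differences of 0.18 ± 0.080 and 0.14 ± 0.061 averaged over ages (limma adjusted p = 0.274 and 0.283). In both, KO and WT overlapped at each age, and without F18 the value of Mrps15 was 0.12. Mrpl24 overlaps Rrnad1 on the other strand, and whether counting used the strand is not stated in the sources at hand.

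On the lower side, Mrps25, specific to the mitochondrial small subunit, had the smallest p. Its levels were 17.3, 18.3 and 17.7 FPKM in WT and 17.8, 15.4 and 16.5 in KO at 5 months, and 17.6, 16.1 and 16.6 in WT and 16.3, 16.5 and 15.9 in KO at 8 months. The averaged change was −0.070 ± 0.044 (limma adjusted p = 0.432), and the groups overlapped at both ages. F18, the library highest in 33 members, held the lowest Mrps25 value of all 12 libraries, and without it the averaged difference was −0.046. Mrps25 overlaps Nr2c2, a nuclear receptor gene on the other strand. The most negative averaged differences were those of Mrps14 (−0.14 ± 0.11) and Mrpl1 (−0.10 ± 0.070), neither past an unadjusted p of 0.05, and without F1 they were −0.065 and −0.056.

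Near Dusp1, 3 members lie within 10 Mb: Mrpl28 (0.385 Mb), Mrps34 (1.613 Mb) and Mrps18b (9.408 Mb). Their changes averaged over ages were 0.093 ± 0.077, 0.033 ± 0.084 and 0.13 ± 0.095 (limma adjusted p = 0.562, 0.862 and 0.492), and leaving out single libraries moved them between 0.048 and 0.13, −0.015 and 0.082, and 0.062 and 0.18. Mrpl28, a large subunit protein, had 37.6, 37.3 and 44.4 FPKM in WT and 45.4, 51.6 and 41.0 in KO at 5 months, where the groups overlapped.

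Neither of the hearing loss genes named above passed a test. Mrps2 had 14.8 to 16.04 FPKM in WT and 15.3, 19.6 and 13.8 in KO at 5 months, and 16.3, 14.9 and 16.6 in WT and 15.6, 16.3 and 16.2 in KO at 8 months, a change of 0.044 ± 0.077 averaged over ages. Mrps7 had 30.3, 31.3 and 31.1 in WT and 31.2, 41.6 and 31.1 in KO at 5 months, and 34.6, 34.4 and 33.5 in WT and 34.3, 39.0 and 32.2 in KO at 8 months, a change of 0.092 ± 0.076. Without F18 these were −0.026 and 0.023. In both genes the groups overlapped at each age, and limma's adjusted p was 0.799 and 0.561. F18 held the highest value of each. Mrps36, of the dehydrogenase complex, was also highest in F18 (104 FPKM, where the other 11 libraries had 49.6 to 82.2).

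The difference of the genotype changes between 8 and 5 months had a median of −0.048 over members and 0.013 over all genes, and 25 of 77 members were above 0 (all genes 52.6%). The sign of the median rested on F18, since it was 0.055 without F18 and −0.11 without F19. No member passed an adjusted p of 0.05 in limma (all genes 0.00615%) or reached an unadjusted p under 0.05 in it, where 3.01% of all genes did on the higher and 1.65% on the lower side.

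The next question is whether the genes changed with age. In WT, all 3 libraries at 8 months lay above all 3 at 5 months in 35 of 77 members (45.5%), and below them in none, where 10.3% and 8.8% of all genes did so. The median change with age in WT was 0.15 over members and 0.018 over all genes, and 72 of 77 were above 0 (all genes 53.7%). Singly, 7 members were higher at an unadjusted p under 0.05 and none lower (all genes 4.28% and 3.56%), and none passed an adjusted p of 0.05 in limma (smallest 0.631, all genes 0.0123%). The count of 7 depended on single libraries and on the model. It was 2 without E3 (all genes 2.78%) and 16 without F18 (5.13%), a KO library that enters only through the spread shared in the fit. It was 18 with libraries weighted by their quality (8.22%), 30 with the WT groups fitted alone (6.86%) and 0 with a term for the code letter (5%). The exceptions below 0 were Mrpl1, Mrpl15, Mrpl19, Mrpl50 and Mrps25.

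Most marker lists had medians farther from 0 with age in WT too. The 19 neuron markers (−0.00034) and the 20 cochlear markers (0.037) did not. All 18 neutrophil markers (median 1.91), all 13 erythroid markers (0.73), 12 of 13 B cell markers (0.65) and all 19 proliferation markers (0.46) were above 0, and all 14 skeletal muscle markers (−1.98) and 15 of 16 brain markers (−0.47) below it. At an unadjusted p under 0.05 in limma there were 1 neutrophil marker and 1 muscle marker and none of the erythroid, B cell, proliferation and brain lists. At that p 3 neuron markers were lower and 2 cochlear markers higher (all genes 3.56% lower and 4.28% higher). The muscle sum was 419 to 2371 FPKM at 5 months and 323 to 356 at 8 months, and the neutrophil sum 96.8 to 728 and 726 to 4716. The part of these cells in the members' values was not tested.

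The 4 members of smallest p were Mrps12, the counterpart of the bacterial S12 protein of the decoding site, and 3 of the large subunit, Mrpl40, Mrpl28 and Mrpl54. Mrps12 had 45.1, 43.8 and 45.8 FPKM at 5 months and 47.6, 56.9 and 54.7 at 8 months in WT, a change of 0.24 ± 0.078. Mrpl40 had 24.4, 21.4 and 22.8 against 25.6, 26.6 and 28.0, a change of 0.22 ± 0.080. In both the ages did not overlap, and F10 and F12 held the highest 8-month values of Mrps12 and Mrpl40 respectively. Mrpl28 had 37.6, 37.3 and 44.4 FPKM and then 45.8, 51.0 and 48.9 (0.29 ± 0.11). Mrpl54 had 37.9, 40.7 and 45.1 and then 46.7, 55.4 and 50.9 (0.30 ± 0.12). The exact permutation p was 0.1 for each, the smallest possible, and limma's adjusted p was 0.631 for all 4.

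Over all members the median change with age in WT stayed between 0.13 and 0.16 whichever library was left out. With every library scaled to the median ratio of all genes, 29 members did not overlap and all 29 were higher at 8 months, where 9.31% of all genes were wholly higher and 10.2% wholly lower. OXPHOS genes had the same direction, with 43 of 76 not overlapping and higher (56.6%) and a median change of 0.25, and cytosolic ribosomal protein genes had 44 of 82 (53.7%) and 0.22. These 3 groups share the same libraries. The comparison also shares the WT libraries at 5 months with that of KO and WT at 5 months, so a low level in E1, E3 and E4 enters both. A code letter term took the WT median to 0.033, and this term rests on E7 against F18 and F19, since only the KO group at 5 months holds both letters.

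**Figure D4:**
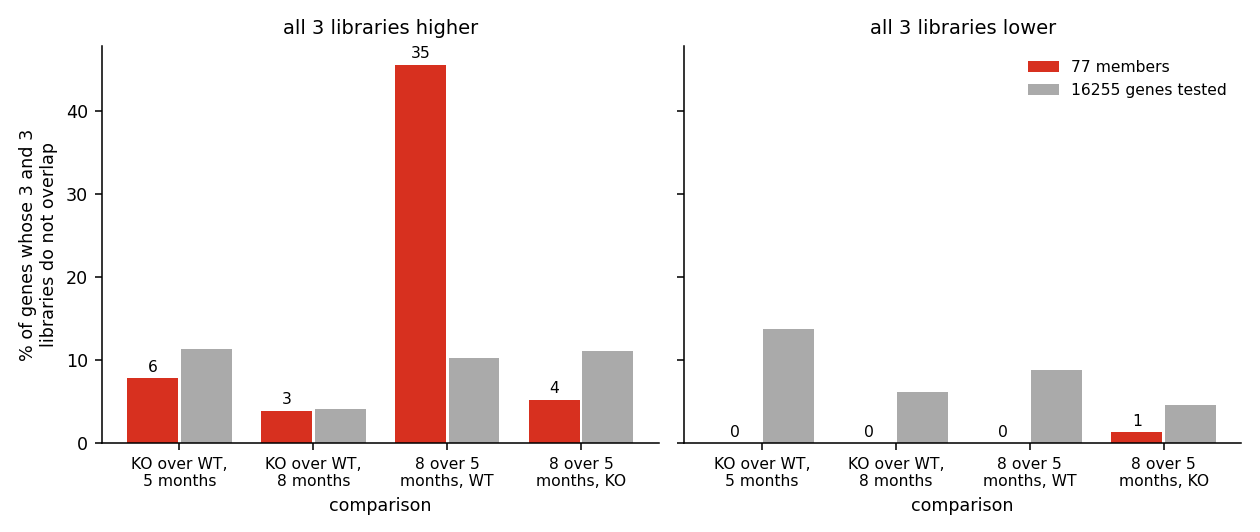
Share of genes (%) whose 3 libraries in 1 group lie wholly above (left) or below (right) the 3 of the other, for the 77 members (red, with their number) and the 16255 genes tested (grey), in 4 comparisons. The members exceed all genes for 8 over 5 months in WT, with 35 members, and lie at or below them elsewhere.

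In KO the ages differed less evenly. A value above 0 was found for 61 of 77 members (all genes 53.3%), all of them also above 0 in WT, with a median change of 0.093 (all genes 0.015). The libraries did not overlap in 4 members that were higher at 8 months (Mrpl21, Mrpl48, Mrpl52 and Mrps33, 5.19%, all genes 11.1%) and in 1 that was lower (Mrpl1, 1.3%, all genes 4.58%). Singly 7 were higher at an unadjusted p under 0.05 and none lower (all genes 8.84% and 3.75%), and none passed an adjusted p of 0.05 in limma (smallest 0.318, all genes 0%). Without F18 the median was 0.20 and 33 members were higher at that p (all genes 6.97%), and without F19 it was 0.013. Xist, which is transcribed in females, had 34.9 FPKM in F6 and 47.6 in F27 but 0.055 in F5 and 0.021 to 0.0726 in KO at 5 months. Age and sex therefore cannot be fully told apart in KO. In WT it had 52.4 FPKM in E4 and 49.4 in F1, and at most 0.0935 in the others. Xist was thus high in a WT but in no KO library at 5 months, and in more KO than WT libraries at 8 months. Genotype and sex therefore cannot be fully told apart either.

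Mrps10 led here too, with a change of 0.28 ± 0.086 (exact permutation p = 0.2, limma adjusted p = 0.318), as F18 lay above F5. Mrpl48, of the large subunit, had 57.5, 63.7 and 61.0 FPKM in KO at 5 months and 66.2, 74.7 and 67.0 at 8 months, without overlap (0.19 ± 0.062, limma adjusted p = 0.331), and it overlaps Rab6a on the other strand. Mrpl52 had 133, 141 and 128 against 157, 183 and 143, also without overlap (0.26 ± 0.089, limma adjusted p = 0.342). Mrpl23 had 74.9, 83.6 and 72.2 against 85.2, 98.8 and 81.4, where F27 lay below F18 (0.20 ± 0.077, limma adjusted p = 0.357). Without F6 the differences of Mrpl52 and Mrpl23 were 0.16 and 0.12.

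**Figure D5:**
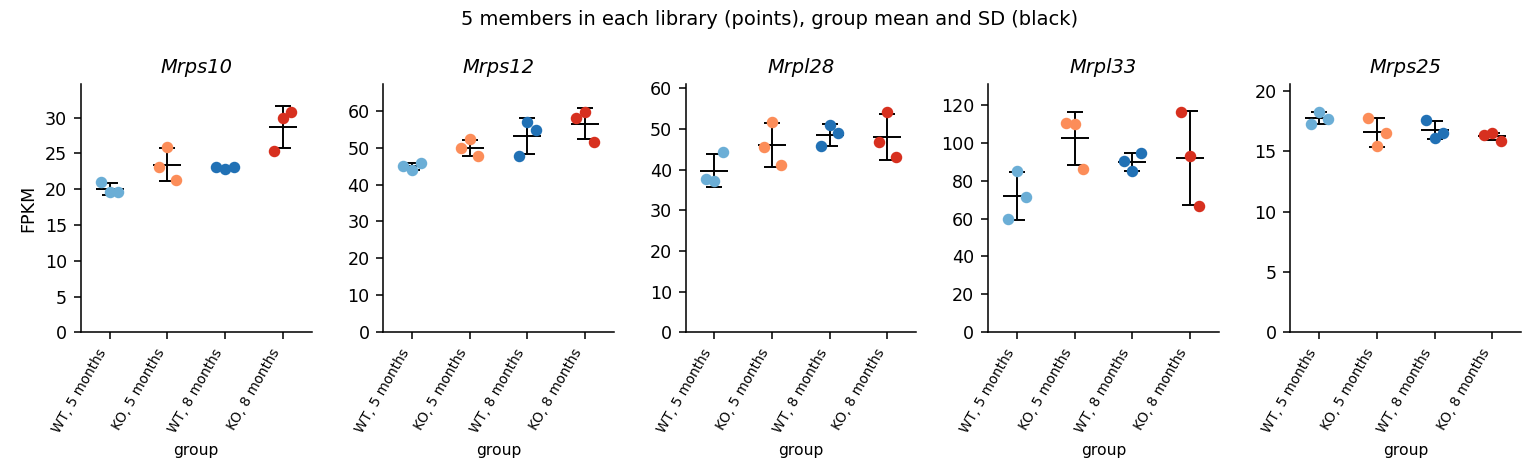
FPKM of Mrps10, Mrps12, Mrpl28, Mrpl33 and Mrps25 in each library (points) by group, with group mean and SD (black, n = 3). Mrps10 is higher in KO than in WT at each age, Mrps12 and Mrpl28 lie higher at 8 than at 5 months in WT, Mrpl33 spreads widely in KO at 8 months and Mrps25 is nearly level.

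The parts of the ribosome had similar medians. Median changes of large and small subunit genes were 0.10 and 0.095 between genotypes at 5 months, 0.034 and 0.056 at 8 months, 0.14 and 0.15 with age in WT and 0.082 and 0.095 with age in KO. Genes with a bacterial counterpart and those specific to mitochondria had 0.12 and 0.095, 0.038 and 0.044, 0.15 and 0.14, and 0.060 and 0.11 in the same order. The difference between these classes was not tested. KO lay wholly above WT in 6 members at 5 months (7.79%, all genes 11.3%) and in 3 at 8 months (3.9%, all genes 4.11%). Neither share exceeded that of all genes. All of these members have a bacterial counterpart, as do 46 of 77 members.

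Other genes of mitochondrial translation were read from lists. Of 6 ribosomal proteins outside the naming rule (Dap3, Ptcd3, Chchd1, Aurkaip1, Ict1 and Gadd45gip1), none reached an unadjusted p under 0.05 between genotypes averaged over ages, where 7.74% of all genes were higher and 9.65% lower. Of 16 translation factors 1 was lower and none higher: Guf1, an elongation factor that moves the ribosome backwards, by −0.20 ± 0.075 (limma adjusted p = 0.245). Of 27 assembly factors 1 was higher and none lower: Rbfa, which binds the maturing small subunit.

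Rbfa had 11.2, 10.2 and 12.3 FPKM in WT and 19.8, 18.5 and 13.1 in KO at 5 months, and 12.2, 12.3 and 15.5 in WT and 19.8, 17.4 and 13.2 in KO at 8 months. The groups did not overlap at 5 months but did at 8 months, and the averaged change was 0.44 ± 0.13 (limma adjusted p = 0.188), larger than that of any member. Its highest values lay in E7 and F5, the libraries with the highest neutrophil marker sums. In the other KO libraries, F18, F19, F6 and F27, Rbfa had 18.5, 13.1, 17.4 and 13.2 FPKM. The marker sums there were 4234, 7491, 928 and 1319 FPKM in the same order. The part of neutrophils in the level of Rbfa was not tested.

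Of 22 aminoacyl-tRNA synthetases and partners 13 were above 0 between genotypes averaged over ages (all genes 45.7%). At an unadjusted p under 0.05 in limma none was higher and 2 were lower (all genes 7.74% and 9.65%). The first was Gatc, a subunit of the glutamyl-tRNA amidotransferase (−0.12 ± 0.050, limma adjusted p = 0.259). The second was Hars2, the mitochondrial histidyl-tRNA synthetase, a gene of Perrault syndrome with hearing loss (−0.094 ± 0.039, limma adjusted p = 0.261). Of 14 genes of mitochondrial DNA expression none reached an unadjusted p under 0.05 in either direction. With age in WT the same lists had 1 of 6, 1 of 16, 4 of 27, 1 of 22 and 1 of 14 genes higher at that p and none lower (all genes 4.28% and 3.56%). Their median changes with age in WT were 0.14, 0.035, 0.12, 0.048 and 0.027, against 0.15 for the members.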

How the data were processed

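Cochleae were dissected and kept in RNAlater, and stranded poly(A) libraries were made from 1 µg of total RNA. Per the submitters' processing notes, the authors used FastQC 0.10.1 for quality checks, TopHat2 2.0.10 with SAMtools 0.1.19 and Bowtie 1.0.0 for alignment (build mm9), and Cufflinks 2.2.1, which gave the deposited FPKM per library and the group FPKM per comparison. Other columns of the comparison files hold the authors' own fold changes and p-values and were not used.

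Decimal points are misplaced in the deposited FPKM table. They were restored per gene and group by the single set of 3 values whose mean equals the authors' group FPKM within a relative tolerance of 2e-05. Of 95804 gene and group pairs, 74 had no such set and 18 had several, which left 23915 of 23951 genes, all 77 members among them, and 55.17% of values were changed. On simulated data all 5000 gene groups were recovered. Depth is unknown, and FPKM add up to 500472 to 583027 per library.

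The 16255 genes that averaged 0.5 FPKM or more were fitted as log2(FPKM + 0.5) in 1 model of the 4 groups with a variance trend (limma 3.58.1, R 4.3.3), with p adjusted over all genes by Benjamini and Hochberg. Fold changes on this scale understate those of low genes. Single members also have two-sided exact permutation tests. On simulated data limma found 35.8, 77.6 and 97% of genes changed by 0.5, 1 and 2 (log2) between KO and WT at 5 months. These were calls at an adjusted p under 0.05, with 8 false calls. The simulated noise was independent between genes, while the members moved together from library to library, and no change below 0.5 was simulated. Lists are described by counts and medians only. Positions and sequences come from the mouse genome of the same build (mm9). Where nothing says that libraries came from separate animals beyond their codes, p measures only the spread between libraries. Members, lists and the rule for named genes (those of smallest p under 0.05 in each direction and comparison, the 5 highest and lowest, those within 10 Mb of Dusp1, hearing loss genes and non-ribosomal members) were chosen with earlier results of these data known. Alternatives changed the pseudocount, filter, scaling, variance model, covariates, groups fitted and libraries.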

Additional observations from a re-analysis of the deposited data

How the results depend on the processing

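No member passed an adjusted p of 0.05 in limma under any alternative, and of 28 pairs of a named gene and a comparison recomputed, all stayed on their side of it. Many of the named genes were picked for small p or large differences in these same libraries, which favours a kept direction. Of 683 recomputed values 672 kept their direction. The 11 others, averaged over ages, were small: Mrps34 had −0.0041 with array weights, −0.019 with the code letter, −0.013 without F18, −0.015 without F1, −0.013 without F6 and −0.059 without F18 and F6, Mrps2 −0.0057 with array weights, −0.026 without F18 and −0.032 without F18 and F6, and Mrps7 −0.015 and Mrps36 −0.020 without F18 and F6. The highest values of Mrps34 and Mrps2 with 1 library left out were 0.082 (without F27) and 0.097 (without F19). Results that moved are counts of members higher at an unadjusted p under 0.05, unless stated otherwise. Under other scalings, the median ratio gave 6 averaged over ages (all genes 9.4%), 4 with age in WT (3.19%) and 3 with age in KO (6.65%). In KO no member's ages then lay apart on the higher side (0, all genes 8.38%). Quantile scaling gave 4 with age in WT (all genes 2.63%). Scaling moved the median of all genes by under 0.1, but the genes at that p with age in WT went from 695 higher and 578 lower to 519 and 846 (median ratio) or 428 and 840 (quantile), those with age in KO from 1437 and 609 to 1081 and 988 (median ratio), and those between genotypes averaged over ages from 1258 and 1568 to 1528 and 1332 (median ratio). A filter at a mean above 0 gave 5 averaged over ages (all genes 6.68%). No variance trend gave 1 averaged over ages (all genes 7.3%) and 4 with age in WT (3.92%). Array weights gave 2 at 8 months (all genes 2.51%), 1 averaged over ages (8.01%) and 1 for the difference between ages (3.21%). They gave 18 with age in WT and 19 with age in KO (all genes 8.22% and 8.25%). Code letter as a covariate gave 0 at 5 months (all genes 10.3%), 1 averaged over ages (10.8%) and 3 with age in KO (6.8%). With age in WT it gave 0 (all genes 5%) and a median change of 0.033. The level of Xist, transcribed in females, as a covariate gave 1 at 5 months (all genes 6.17%), 1 averaged over ages (8.22%) and 3 with age in KO (6.43%). Fitting the compared groups alone gave 30 with age in WT and 2 with age in KO (all genes 6.86% and 7.07%). The cause of these moves was not tested.

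Leaving out each library in turn, where groups of fewer libraries separate more easily by construction, gave these lowest and highest values. Between genotypes at 5 months the median was 0.0036 (without F18) to 0.18 (without F19). Members higher were 0 (without F18, all genes 9.92%) to 13 (without F19, 8.37%), and lower 0 to 1 (without E7, 6.01%). Groups lay apart in 6 (without F18, all genes 18.4%) to 24 higher (without F19, 15%) and 0 to 8 lower (without F18, 17.5%). At 8 months the median was −0.017 (without F6) to 0.074 (without F27), with 1 to 3 higher (without F27, all genes 2.62%) and 0 to 2 lower (without F10, 2.25%). Groups lay apart in 3 to 18 higher (without F27, all genes 9.6%) and 0 to 5 lower (without F6, 9.96%). Averaged over ages the median was 0.021 (without F18) to 0.11 (without F19), with 1 to 11 higher (without F19, all genes 7.1%) and 0 to 1 lower (without F10, 7.4%). Groups lay apart in 0 to 1 higher and 0 to 0 lower (without F19, all genes 0.4% and 1.96%). The difference between ages had medians of −0.11 (without F19) to 0.055 (without F18), 0 to 1 higher (without F1, all genes 2.83%) and 0 to 2 lower (without F19, 2.06%). With age in WT the median was 0.13 to 0.16, with 2 (without E3, all genes 2.78%) to 16 (without F18, 5.13%) higher and 0 lower. Groups lay apart in 35 (without E7, all genes 10.3%) to 55 higher (without F10, 17.1%) and 0 to 4 lower (without E1, 11.7%). E7 and F18 are KO libraries outside this comparison. The 35 is thus the full count, and F18 enters the 16 only through the spread shared in the fit. With age in KO the median was 0.013 (without F19) to 0.20 (without F18). Members higher were 1 (without F6, all genes 4.59%) to 33 (without F18, 6.97%), and lower 0 to 1 (without F10, 3.35%). Groups lay apart in 4 (without E1, all genes 11.1%) to 43 higher (without F18, 16.4%) and 1 to 2 lower (without E7, 7.09%). E1 and F10 are WT libraries outside this comparison. The 4 is thus the full count, and F10 enters only through that shared spread.

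2 alternatives were chosen after the data were seen. Without F18 and F6 there were 0 higher and 1 lower at 5 months (all genes 9.75% and 5.48%) and 2 lower at 8 months (2.46%). There were 1 higher and 1 lower averaged over ages (all genes 10.1% and 6.24%) and 1 lower for the difference between ages (1.5%). With age 28 were higher in WT and 16 in KO (all genes 5.83% and 3.7%). F18 and F6, both KO, enter the WT count only through the spread shared in the fit. Without E7 and F5, the libraries of most neutrophil marker RNA, there were 3 higher at 8 months (all genes 3.11%) and 5 averaged over ages (4.64%). For the difference between ages 1 was higher and 2 lower (all genes 3.59% and 4.77%). With 3 libraries a group no exact test between 2 groups can go below 0.1, and without depth the counting error of low members is not known.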
